A study of Mus musculus with 16 samples.

Results

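The clone S33Y #2 of E14 mouse embryonic stem cells (mESCs), with 2 of the 16 libraries of the series, was compared with young-passage E14 mESCs (YP-mESCs), which also had 2. All 4 libraries were named by their titles. E14 is a male embryonic stem cell line of the 129/Ola strain, and both groups were kept in serum with LIF, the cytokine that holds mESCs undifferentiated. S33Y #2 is a single clone of E14 mESCs that overexpress β-catenin with the S33Y substitution, which the cell cannot mark for destruction, and it was analysed after prolonged culture. The titles mark the mutant clones as old and no passage number is given for them there, whereas YP-mESCs had 14 passages. The mutation, the derivation from a single cell and the time in culture therefore cannot be told apart in this comparison. DNA methylation was measured by reduced representation bisulfite sequencing (RRBS), in which bisulfite turns unmethylated cytosines into uracil, and the methylation level of a CpG is the percentage of its reads that kept a cytosine. The 4 libraries covered 726322 to 881356 CpGs with a median of 24 to 34 reads per CpG. On mitochondrial DNA, 0.449% and 0.405% of the reads of CpGs were methylated in the clone and 0.260% and 0.242% in YP-mESCs. After the reads of both strands were summed, 622025 CpGs had 10 or more reads in all 4 libraries. Chromosome 13 was absent from YP-mESC replicate 2 and therefore has no part in the counts below.

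In mammalian cells, methyl groups on CpGs are copied to the new strand after replication, added by DNA methyltransferases and removed by dilution or by TET enzymes. Most CpG islands at promoters are free of methylation, and most other CpGs carry it. An imprinting control region (ICR) is methylated on the allele of a single parent, so that a level near the middle of the scale is typical, and it sets which parental copy of the neighbouring genes is transcribed. The zinc finger protein ZFP57 binds a methylated hexanucleotide in ICRs and protects their methylation in mESCs.

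The 6 stretches below, from the forward strand of mm9, are given because clear shifts of the clone lie in them. Capitals mark the CpGs that were read in all 4 libraries. The measured part of the Gpr1 ICR, at chr1:63247011-63247132, lies in an exon of the non-coding transcript Gm11607, and that of the Kcnq1ot1 ICR, at chr7:150481280-150481316, in an intron of Kcnq1. The Tex19.1 stretch, at chr11:121007572-121007752, lies in the first part of that gene, within its promoter window. The Padi1 stretch, at chr4:140425152-140425231, is intergenic. The Abca16 stretch, at chr7:127647958-127648139, and the Socs5 stretch, at chr17:87524887-87524971, are intronic.
Gpr1 ICR: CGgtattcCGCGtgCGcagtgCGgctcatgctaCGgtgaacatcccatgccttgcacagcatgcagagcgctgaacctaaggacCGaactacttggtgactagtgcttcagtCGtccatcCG
Kcnq1ot1 ICR: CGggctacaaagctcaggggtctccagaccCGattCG
Tex19.1: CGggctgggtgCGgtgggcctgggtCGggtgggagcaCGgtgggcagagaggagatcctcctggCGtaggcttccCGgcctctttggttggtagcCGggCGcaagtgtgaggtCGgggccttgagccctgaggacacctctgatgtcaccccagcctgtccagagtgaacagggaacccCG
Padi1: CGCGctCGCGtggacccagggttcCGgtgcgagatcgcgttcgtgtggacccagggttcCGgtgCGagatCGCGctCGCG
Abca16: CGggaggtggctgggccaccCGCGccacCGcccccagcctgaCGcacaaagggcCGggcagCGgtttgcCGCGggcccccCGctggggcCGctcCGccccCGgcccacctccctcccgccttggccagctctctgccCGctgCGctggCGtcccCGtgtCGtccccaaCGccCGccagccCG
Socs5: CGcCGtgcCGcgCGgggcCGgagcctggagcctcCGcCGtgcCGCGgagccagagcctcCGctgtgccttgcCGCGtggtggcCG

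Genome-wide, S33Y #2 was slightly less methylated than YP-mESCs, and its losses were more frequent than its gains. That this clone loses more than it gains was known when it was chosen, so the direction of the counts is a description. The mean level over the 622025 CpGs was 26.5% and 26.2% in the clone and 27.2% in each YP-mESC replicate, so that the groups did not overlap and differed by -0.81 percentage points, or by -0.37 points where CpGs were weighted by their reads. An exact permutation test of 2 against 2 libraries gave its smallest possible p, 0.333. The clone's mean was more than 25 points below that of YP-mESCs at 8354 CpGs and more than 25 points above it at 2000, which are 1.34% and 0.322% of the CpGs. Reads were then modelled as quasi-binomial with 1 overdispersion for the whole table. A CpG was called where the Benjamini-Hochberg adjusted p of its chi-square test was under 0.05 and the groups were more than 25 points apart, which gave 4623 lower (0.743%) and 754 higher CpGs (0.121%). Lower CpGs made up 86.0% of these calls. Between the replicates of the clone 1.11% of the CpGs were over 25 points apart, between those of YP-mESCs 1.35%, and between the group means 1.66%. The first 2 shares compare single libraries. The last compares means of 2 libraries, which carry less counting error, so that it cannot be set directly against them.

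The called losses started at partial or high levels and ended at partial or low ones. The median called-lower CpG had 65.1% in YP-mESCs and 25.5% in the clone, and 885 of the 4623 were under 10% in the clone. The median called-higher CpG had 36.7% in YP-mESCs and 76.6% in the clone, and 181 of the 754 were over 90%. These levels describe what the threshold selected and were not tested. Of the called CpGs, 57.0% of the lower and 56.9% of the higher ones had another CpG called the same way less than 2 kb away. The share of all compared CpGs with a compared neighbour at that distance is not given. These shares therefore cannot show whether calls lay closer together than the CpGs that RRBS covers. A read spans several CpGs, so that neighbours are not independent.

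Losses were less frequent per CpG in CpG islands than outside them. Islands, defined on mm9 by GC content, CpG ratio and a length of 200 bp or more, held 400440 of the compared CpGs (64.4%) and hardly moved, from 5.58% ± 0.0043 (SD, n = 2) in YP-mESCs to 5.51% ± 0.042 in the clone. Shores, the 2 kb on either side of an island, fell by 2.61 points, from 52.1% ± 0.0033 to 49.5% ± 0.42, and open sea CpGs fell by 1.96 points, from 71.1% ± 0.0071 to 69.1% ± 0.45. In both classes each clone replicate was below each YP-mESC replicate. Of the CpGs in shores 2.22% were called lower and 0.249% higher, in the open sea 1.65% and 0.188%, and in islands 0.159% and 0.0754%. Islands thus gave 13.8% of all called-lower and 40.1% of all called-higher CpGs. Within islands, CpGs in promoters had a mean change of 0.11 points and those outside promoters one of -0.40 points.

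The shares of calls also differed by CpG density. With 1 to 4 CpGs in the surrounding 200 bp, 1.79% of CpGs were called lower and 0.117% higher, which is 15.4 losses per gain. With 10 to 14 CpGs the shares were 0.768% and 0.354%, the highest share of gains, with 2.17 losses per gain. With 30 or more CpGs, 2 of 66040 were called lower and 6 higher. In the same order, the mean YP-mESC level of these classes was 73.6%, 24.2% and 0.451%. The part of density was not separated from that of the starting level.

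By location, coding exons moved the most. Their mean level fell by 2.49 points, from 41.6% ± 0.030 in YP-mESCs to 39.1% ± 0.27 in the clone, and 993 of their 69438 CpGs were called lower against 51 called higher. Introns fell by 1.59 points, UTRs by 0.88 and intergenic CpGs by 0.73. Intergenic CpGs, 18.1% of those compared, held 46.3% of all called-higher CpGs and 24.7% of all called-lower ones. Of the intergenic CpGs 1.02% were called lower and 0.310% higher. Promoters, taken as 1000 bp before to 500 bp after a gene's most upstream start, had a mean change of 0.03 points, from 2.70% ± 0.015 to 2.73% ± 0.024, with 248 CpGs lower and 121 higher among 268202. These differences between classes were not tested and were not separated from the starting level.

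**Figure D1:**
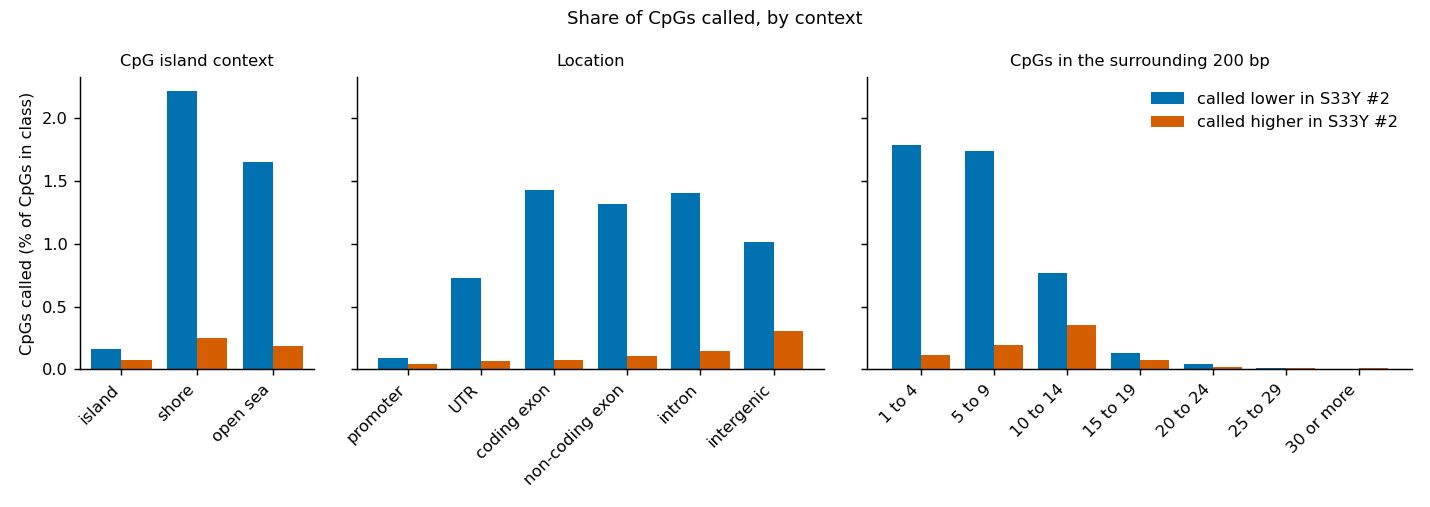
Percentage of the CpGs of each class that were called lower (blue) or higher (orange) in S33Y #2 than in YP-mESCs, by CpG island context, location and number of CpGs in the surrounding 200 bp. Losses reach 2.22% in shores, while islands, promoters and the densest CpGs show few calls either way. These classes also had the lowest levels in YP-mESCs, and the part of the starting level was not tested.

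The change also depended on the level at which a CpG started. To keep the replicate that defined the bins out of the difference, CpGs were binned by 1 YP-mESC library and the clone was compared with the other. CpGs at 40 to 60% in YP-mESC replicate 1 had 52.2% in replicate 2 and 46.6% and 45.4% in the clone, a difference of -6.17 points. Those at 20 to 40% differed by -4.98 points and those at 60 to 80% by -3.28 points. CpGs under 5% differed by 0.12 points and those at 80 to 95% by -0.39 points. Exchanging the replicates gave -6.17 points for 40 to 60%, -5.07 for 20 to 40% and -3.23 for 60 to 80%. The deficit of the clone thus sat at partly methylated CpGs, while unmethylated and highly methylated ones stayed within 0.40 points of the other YP-mESC library.

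**Figure D2:**
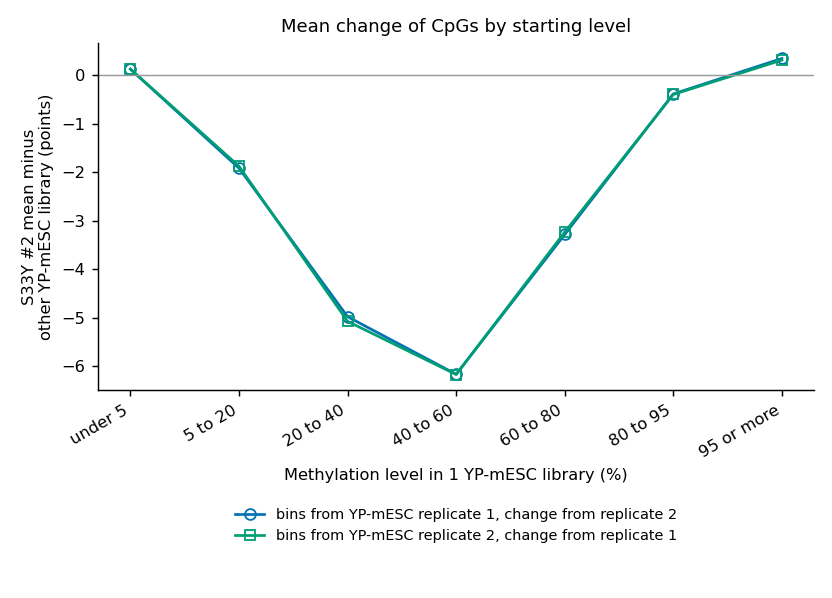
Mean methylation of S33Y #2 minus the YP-mESC library not used for binning, in percentage points, for CpGs binned by their level in the other YP-mESC library. Both lines are lowest at 40 to 60%, at -6.17 points, and near 0 at both ends.

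All autosomes with data fell on average. Chromosome 17 had the lowest mean change, -1.31 points, with 331 CpGs called lower and 22 higher. Chromosome X changed the least, by -0.06 points, with 23 lower and 16 higher among 6244 CpGs. Chromosome Y, with 64 CpGs, differed by 2.74 points. On chromosome 13, where only YP-mESC replicate 1 could be used, the clone had 28.7% and 28.4% over 25802 CpGs and YP-mESC replicate 1 had 28.97%.

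The share of reads per chromosome also differed in the clone. Relative to the mean of the YP-mESC libraries, chromosome 8 received 0.774 and 0.771 times the share of reads in the replicates of S33Y #2, while YP-mESC replicate 2 had 1.04 times the share of replicate 1. Chromosome 11 received 0.925 times the share in both clone replicates, chromosome 14 received 1.11 and 1.10 times and chromosome 2 received 1.08 and 1.09 times. On chromosome 14 the excess lay beyond 60 Mb, with a median ratio of 1.19 over 10 Mb bins against 1.02 before it, and on chromosome 2 between 90 and 160 Mb, with ratios of 1.07 to 1.35. In the other clone, S33Y #1, chromosome 8 had 0.845 and 0.814 times the YP-mESC share and chromosome 11 had 0.902 and 0.896 times. Chromosome 14 had 1.12 times in both replicates of S33Y #1, and chromosome 2 had 1.00 and 1.01 times. Chromosome 1 had 1.22 and 1.23 times in S33Y #1. Without chromosomes 2, 8, 11 and 14, an alternative chosen after seeing the data, the clone differed by -0.80 points, and 3318 CpGs were called lower and 551 higher.

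**Figure D3:**
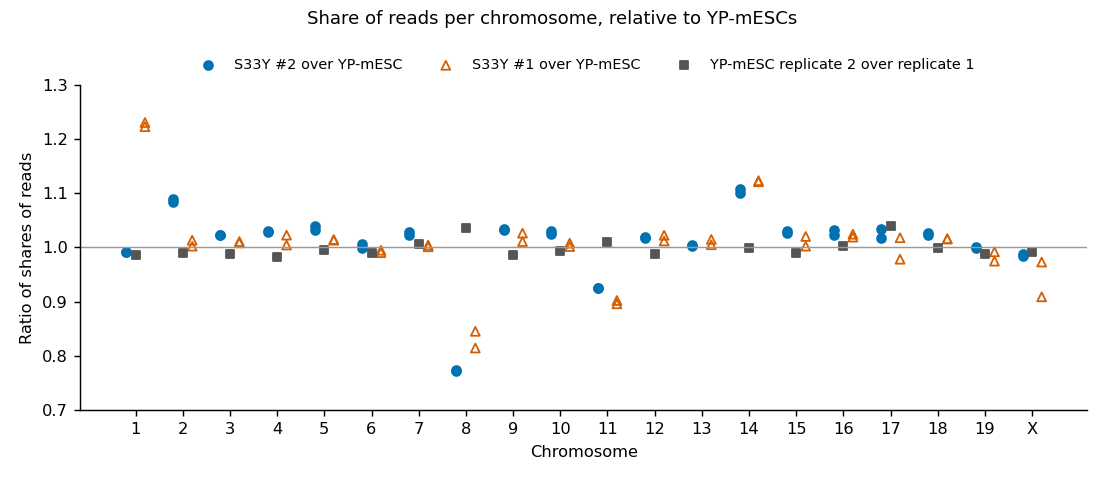
Share of reads on each chromosome relative to YP-mESCs, for the 2 libraries of S33Y #2 (blue circles) and of S33Y #1 (open triangles), with YP-mESC replicate 2 over replicate 1 as grey squares. Chromosome 8 lies at 0.774 and 0.771 in S33Y #2, and chromosomes 2 and 14 lie above 1.

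In windows of 1 kb with at least 3 CpGs, more were called lower than higher. Summed reads were tested with a quasi-binomial model, its overdispersion moderated across windows by limma, and 714 of 58112 windows were called lower (1.23%) and 128 higher (0.22%). Limma on log2 ratios (lowest adjusted p = 0.0779) and the replicate block with a moderated overdispersion called 0 windows in either direction, with 713 and 128 and with 704 and 125 windows over 25 points at an unadjusted p under 0.05. Without the threshold of 25 points, 5195 windows passed an adjusted p under 0.05 in the lower direction (8.94%) and 1583 in the higher direction (2.72%). Of the 714 lower windows, 481 had 30 to 70% in YP-mESCs and 231 had 70% or more. The hexanucleotide TGCCGC, to which ZFP57 binds, was found on either strand in 26.1% of all tested windows, 16.2% of those called lower and 15.6% of those called higher. The motif itself holds a CpG. All tested windows include 19544 under 10% in YP-mESCs, of which 0 were called lower and 1 higher. The shares were not matched for CpG density or starting level and were not tested. The printed stretches of Gpr1, Kcnq1ot1, Tex19.1 and Padi1 do not hold it, Abca16 holds 1 match and Socs5 holds 3. The complete Gpr1 and Kcnq1ot1 ICRs hold 3 matches each.

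Imprinting control regions moved in both directions in the clone. Of the 20 ICRs, 16 had at least 2 CpGs with reads in all 4 libraries. In the windows' test, adjusted over windows and ICRs together, 2 were lower and 7 were higher in the clone. Among 13 tested ICRs with 30 to 70% in YP-mESCs, 2 were under 5% and 3 over 90% in S33Y #2. Among the 9144 windows of 1 kb in the same range, some of which overlap these ICRs, 19 were under 5% and 15 over 90%, together 0.372%. That ICRs of this clone lie near the ends of the scale was known when it was chosen. The levels of Gpr1, Peg10, Gnas, Kcnq1ot1 and Plagl1 are therefore given as a description, and their place among the 9 calls supports nothing. With the replicate block and a moderated overdispersion 0 ICRs were called in either direction, the lowest adjusted p being 0.351, and 2 were lower and 6 higher at an unadjusted p under 0.05.

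The Gpr1 ICR had lost its methylation in the clone. Gpr1 encodes a receptor for chemerin, and its ICR is methylated on the maternal allele. Its 9 CpGs had 0.202% and 0.292% in the clone, over 373 and 327 reads, and 44.4% and 27.7% in YP-mESCs, over 180 and 225 reads (-35.8 points). The highest single CpG of the clone had 2.63% and the lowest of YP-mESCs 14.3%, so that the groups overlapped at none of the 9 CpGs capitalised in the printed sequence.

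The Peg10 ICR was likewise near 0. Peg10 is a paternally expressed gene derived from a retrotransposon that the placenta needs, and it shares this promoter with Sgce, which encodes ε-sarcoglycan. The 12 CpGs, at chr6:4697355-4697490 in the UTR, had 0.245% and 0.556% in the clone and 36.3% and 29.2% in YP-mESCs. The highest CpG of the clone had 2.94% and 6.67% in its replicates, below every CpG of YP-mESCs.

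Gnas moved the other way. Gnas encodes the stimulatory G protein α subunit and several imprinted transcripts. The 17 CpGs of its ICR, at chr2:174123667-174125553, had 91.8% and 94.1% in the clone and 45.2% and 43.2% in YP-mESCs, a difference of 48.7 points. All 17 were changed by more than 25 points.

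The Kcnq1ot1 ICR was also nearly full. It is the promoter of a long non-coding RNA that silences its neighbours on the paternal chromosome. Only 3 CpGs could be compared, and they had 97.9% and 91.3% in the clone, over 95 and 69 reads, and 46.6% and 53.5% in YP-mESCs, over 180 and 94 reads. The lowest clone value of these CpGs was 87.0% and the highest of YP-mESCs 57.9%.

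Plagl1, which encodes a zinc finger transcription factor, rose from an already raised level. Its 35 CpGs had 90.9% and 91.6% in the clone and 72.7% and 61.3% in YP-mESCs, a difference of 24.3 points. The 2 YP-mESC libraries were further apart than the 2 of the clone. Over each library's own CpGs, mESCs with a control shRNA had 95.4% and 96.1% and mESCs of old passage 2.85% and 5.58%.

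Levels above those of YP-mESCs, by smaller differences, were called at 4 further ICRs. Grb10, whose product restrains growth factor signalling, had 51.8% and 51.2% over 38 CpGs in the clone and 30.7% and 34.2% in YP-mESCs. Commd1, the host of the imprinted Zrsr1, had 43.8% and 46.2% over 21 CpGs against 31.0% and 29.4%. Both passed the test (adjusted p = 2.93e-39 and 2.98e-11). Over each library's own CpGs, S33Y #1 had 53.9% and 42.4% at Grb10 and 39.3% and 36.7% at Commd1. In mESCs with a control shRNA Grb10 had 51.9% and 54.95% and Commd1 51.3% and 42.9%. In mESCs of old passage Grb10 had 2.62% and 1.36% and Commd1 38.7% and 32.7%. Inpp5f, which encodes an inositol phosphatase, had 51.9% and 32.5% against 12.6% and 30.05% (adjusted p = 0.00235), and the call was lost without S33Y #2 replicate 1, without YP-mESC replicate 1, with an overdispersion from the ICRs alone and with the replicate block. Mest, which encodes a protein of the hydrolase family, had 47.6% and 52.0% against 36.5% and 32.8% (adjusted p = 0.0383), and this call was lost under 8 of 10 alternatives. Over each library's own CpGs, S33Y #1 had 36.6% and 46.2% at Mest and, in replicate 1 alone, 42.8% at Inpp5f. In mESCs with a control shRNA Mest had 47.7% and 58.9% and Inpp5f 52.4% and 49.1%. In mESCs of old passage Mest had 23.6% and 28.5% and Inpp5f 0.477% and 2.30%.

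The other 7 tested ICRs did not pass. H13 had 33.5% and 26.4% in the clone and 26.3% in each YP-mESC library. Herc3 had 52.6% ± 6.7 (SD, n = 2) in the clone and 50.4% ± 6.7 in YP-mESCs, and Peg3 had 45.6% ± 2.4 and 37.5% ± 7.2. Snrpn varied most between the replicates of the clone, with 29.3% and 50.1% against 33.8% and 37.4%. Meg3, the only paternally methylated ICR among those tested, had 41.8% ± 2.0 and 45.5% ± 2.6, and Impact had 31.7% ± 5.5 and 34.3% ± 1.4. Trappc9 was high in both groups, with 95.3% ± 2.4 and 92.1% ± 0.58. Nnat had 1 CpG in common and H19, Rasgrf1 and Igf2r had none. Over each library's own CpGs, Nnat had 84.2% and 83.3% in the clone and 72.8% in YP-mESC replicate 2, and Igf2r had 42.7% and 46.2% in the clone and 38.0% and 51.7% in YP-mESCs. Rasgrf1 and H19 had no level in the clone.

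The share of reads around the shifted ICRs was also compared. In the 10 Mb bins around them, the replicates of the clone had 0.949 and 0.987 times the YP-mESC share at Gpr1, 0.941 and 0.957 at Peg10, 0.941 and 0.930 at Gnas, 1.07 and 1.06 at Kcnq1ot1 and 0.964 and 0.985 at Plagl1. The bin with Grb10, on chromosome 11, had 0.931 and 0.951 times the share and the bin with Commd1, on the same chromosome, 0.875 and 0.892 times. Bins outside chromosomes 2, 8, 11 and 14 ranged from 0.918 to 1.13. The part of these ratios in the ICR levels was not tested.

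**Figure D4:**
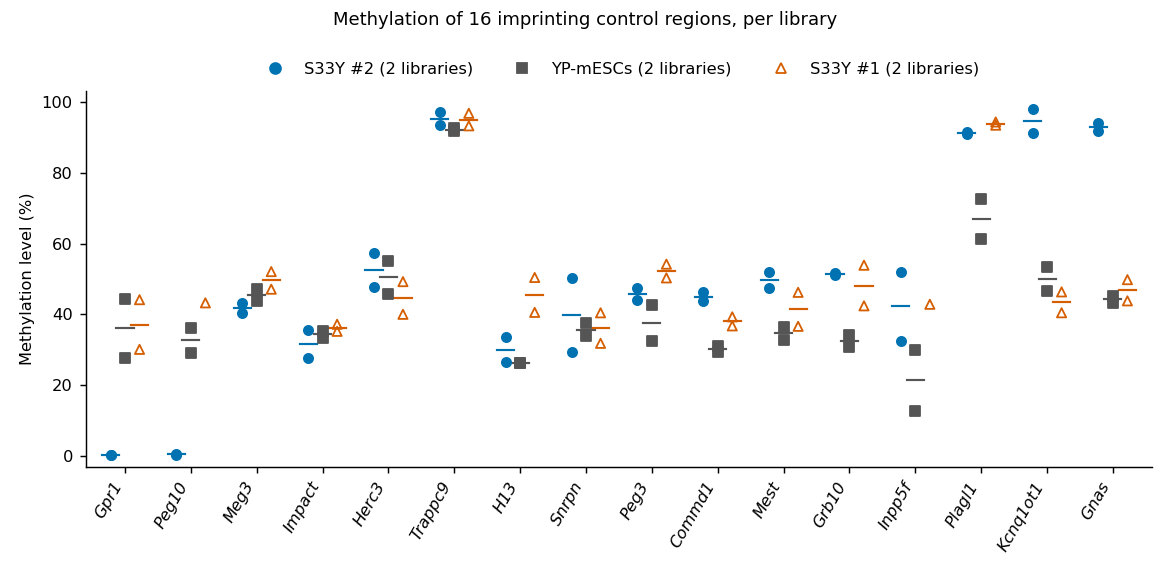
Methylation level of the 16 tested ICRs in each library of S33Y #2 (blue circles), YP-mESCs (grey squares) and S33Y #1 (open triangles, over that library's own CpGs), with the mean of each pair as a bar, ordered by the change in S33Y #2. Gpr1 and Peg10 lie near 0 and Plagl1, Kcnq1ot1 and Gnas above 90% in S33Y #2, while S33Y #1 has 30.1% and 44.1% at Gpr1 and 49.8% and 43.8% at Gnas.

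The second clone with the same mutation, S33Y #1, was compared with S33Y #2 directly, because both had been set against the same YP-mESC libraries. Over CpGs common to these 4 libraries, Gpr1 was 36.9 points lower in S33Y #2, with 30.1% and 44.1% in S33Y #1 (difference -36.9 points). Gnas was 46.3 points higher than the 49.9% and 42.6% of S33Y #1, and Kcnq1ot1 48.1 points higher than its 54.5% and 38.5%. These ICRs are among those for which the clone was known, so that their calls describe it. They held with each library left out in turn and were lost under the replicate block with a moderated overdispersion (adjusted p = 0.635). Peg10 had no common CpG because S33Y #1 replicate 2 did not cover it, and replicate 1 had 43.2%. H13 and Plagl1 were lower and Grb10 higher in S33Y #2, with differences of -16.6, -2.51 and 3.96 points, and all 3 calls were lost under at least 4 alternatives. Plagl1 was high in both clones, with 93.4% and 94.3% in S33Y #1. In this comparison of the clones, 5.44% of windows passed in the lower and 1.08% in the higher direction. In mESCs of old passage, Gpr1 had 0% and Peg10 0.287% in replicate 1, with no level in replicate 2.

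Regions were built from at least 10 CpGs that changed one way by more than 25 points and lay less than 2 kb apart. There were 17 lower regions with 227 changed CpGs and 7 higher regions with 102. Of the lower regions 10 overlapped a coding exon, 3 were intronic, 3 intergenic and 3 reached into a promoter, and of the higher regions 3 reached into a promoter. All CpGs of 6 lower and 4 higher regions lay in islands, among them Hcn2, Zfp239 and Ston2. Peg10 was the only ICR among the lower regions, and Plagl1 and Gnas were the ICRs among the higher ones. Levels below are means over all CpGs of a region that were read in all 4 libraries, and since a region was chosen by its difference, the difference itself is a description.

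The lower region with the most changed CpGs lay in Hcn2, which encodes a pacemaker cation channel, at chr10:79197948-79198732 in coding exon and UTR. Its 34 changed CpGs were among 35, and it had 19.8% and 20.1% in the clone and 63.1% and 60.3% in YP-mESCs. S33Y #1 had 72.2% and 73.9% there over its own CpGs. The region of 1700018B08Rik on chromosome 8, at chr8:124065597-124066530, had 39.7% and 29.5% in the clone, 73.5% and 77.1% in YP-mESCs and 77.8% and 77.6% in S33Y #1. At both genes the libraries of S33Y #2 lay below all libraries of YP-mESCs and S33Y #1, a difference between the clones that was not tested.

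Tex19.1, a germline gene that restrains retrotransposons, had the largest loss of any region, with 29.9% and 21.5% in the clone and 73.0% and 77.1% in YP-mESCs over the 10 CpGs of the printed stretch. S33Y #1 had 31.9% and 28.4% there, and mESCs of old passage 31.6% and 30.2%. Zfp809, which encodes a zinc finger protein that silences retroviruses, had 6.25% and 7.42% in an intronic region of 12 CpGs in the clone and 43.5% and 44.3% in YP-mESCs. S33Y #1 had 9.10% and 11.7% at this region.

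Several genes lost methylation within their bodies. Zfp239, a zinc finger gene, had 18 changed CpGs in its coding exon, with 23.4% and 19.3% in the clone and 59.4% and 62.3% in YP-mESCs. Ywhag, which encodes a 14-3-3 protein, had 20.96% and 21.6% against 57.1% and 56.6%. Nr4a1, an orphan nuclear receptor gene, had 12.6% and 13.5% against 49.9% and 48.9%. Sphk2, which encodes a sphingosine kinase, had 27.2% and 29.6% against 64.4% and 65.8%. Ptbp1, the gene of a splicing repressor, had 28.5% and 25.7% against 56.8% and 59.5%, in a region that also touches BC005764. In each of these the libraries of the groups did not overlap. Ston2, Setd1b, Fam108a and Abca16 fell by 26.4, 28.0, 23.9 and 22.9 points.

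Of the intergenic lower regions, the one 23459 bp from Padi1 had 22.6% and 21.6% in the clone and 65.6% and 54.8% in YP-mESCs. The one 7550 bp from Pfdn4 had 7.93% and 9.64% against 47.4% and 37.2%. The one 66816 bp from the homeobox gene Nkx1-1 had 50.01% and 46.6% against 79.8% and 76.0%.

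Among the higher regions, Phldb3 had the most changed CpGs, 21 of 33, at chr7:25395489-25396616 across the gene's start. It had 40.8% and 43.5% in the clone and 13.2% and 14.5% in YP-mESCs. B3galtl, which encodes a glucosyltransferase, had 51.6% and 44.4% at its start against 12.1% and 23.9%. Introns of Zswim2 and of Socs5, a suppressor of cytokine signalling, had 63.6% and 61.3% against 39.3% and 31.0%, and 59.6% and 64.4% against 30.6% and 38.1%. An intergenic region on chromosome 4, with Fam92a as its nearest coding gene at 230567 bp, had 71.4% and 71.2% against 39.7% and 38.8%. S33Y #1 lay nearer to S33Y #2 than to YP-mESCs in 11 of 16 lower and 6 of 7 higher regions in which it had values, mESCs of old passage in 12 of 14 and 3 of 7, and mESCs with a control shRNA in 4 of 17 and 6 of 7. All these distances use the same YP-mESC and S33Y #2 libraries, which chose the regions, and were not tested. S33Y #1 had 41.1% and 42.3% at Phldb3 and 89.4% and 87.2% at the intergenic region.

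**Figure D5:**
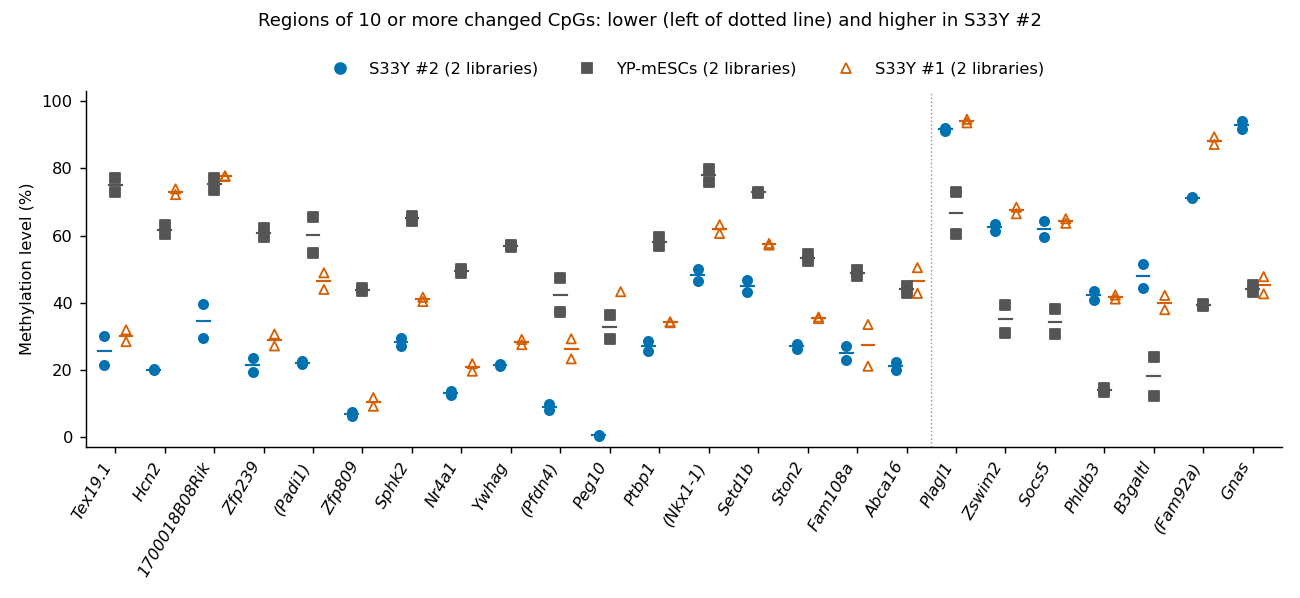
Mean methylation of the 17 lower (left of the dotted line) and 7 higher regions in each library of S33Y #2 (blue circles), YP-mESCs (grey squares) and S33Y #1 (open triangles, over that library's own CpGs), named by gene, with the nearest coding gene in brackets for intergenic regions. Bars are means of pairs, and at Hcn2 S33Y #2 lies at 19.8% and 20.1% while the other groups lie between 60.3% and 73.9%.

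Promoters as a whole stayed unmethylated, and 34 changed. Of 12463 promoters with at least 3 CpGs, 10326 (82.9%) were under 5% in both groups. In the same test as the windows, 23 were called lower (0.185%) and 11 higher (0.0883%), in 22 and 10 distinct sets of CpGs because Peg10 and Sgce, and Lnx1 and Gm15984, share theirs. In all 34 the libraries of the groups did not overlap. A call already requires group means over 25 points apart, and the share without overlap among all promoters is not given. The lack of overlap is therefore a description. Limma on log2 ratios called 3 lower and 0 higher, so that every gain, Trpc5 included, was lost, and the replicate block with a moderated overdispersion called 0 in either direction. At an unadjusted p under 0.05 and over 25 points these gave 23 and 11 and 21 and 11 promoters. The window of Gm11607 is the Gpr1 stretch already given.

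Germline genes were among the losses. Besides Tex19.1, Hormad2, a gene of the meiotic chromosome axis, had 5.40% and 4.76% over 12 CpGs in the clone and 30.7% and 37.3% in YP-mESCs (adjusted p = 3.03e-32). Rnf17, a Tudor domain gene of the male germline, had 8.35% and 8.59% over 16 CpGs against 32.6% and 36.1% (adjusted p = 4.76e-35). Over each library's own CpGs, Hormad2 had 15.5% and 6.08% in S33Y #1 and 18.1% and 0% in mESCs of old passage. It had 19.8% and 15.9% in mESCs with a control shRNA, 8.80% and 8.08% in S33Y #2 and 30.7% and 40.7% in YP-mESCs. Rnf17 had 28.3% and 22.2% in S33Y #1, 12.6% and 11.2% at old passage and 19.8% and 23.1% with the control shRNA. Tmem149, which encodes a membrane receptor, had 19.9% and 18.8% against 58.0% and 62.8%. Gm10110 had 25.8% and 25.7% against 73.1% and 62.3%, and Gm17080 had 31.2% and 19.03% against 50.3% and 60.7%. The promoter of Hnf4a, a transcription factor of liver and gut, fell by 26.7 points, from 69.7% and 77.3% to 44.2% and 49.5%, over 3 CpGs, and this call was lost without S33Y #2 replicate 1, at -24.0 points.

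The largest promoter gain was at Trpc5, which encodes a cation channel and lies on chromosome X. Its 8 CpGs had 86.3% and 89.0% in the clone and 44.5% and 51.2% in YP-mESCs, a difference of 39.8 points (adjusted p = 3.68e-18). S33Y #1 had 88.5% and 91.2% over its own CpGs. Lipa, the gene of lysosomal acid lipase, had 42.6% and 45% against 18.3% and 13.9%, a call that was lost without YP-mESC replicate 2. Phldb3 and B3galtl rose by 28.1 and 25.2 points. The other called gains, at Lnx1, 1700037F24Rik, Gm17396, Ccdc39, Camk2a and Pirt, rested on 3 or 4 CpGs each. Pirt was lost without either library of the clone and without YP-mESC replicate 2, Camk2a without S33Y #2 replicate 1 and Lnx1 without YP-mESC replicate 2.

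Gene lists were then counted beside all promoters, where the median change was 0.11 points and 409 (3.28%) passed an adjusted p under 0.05 in the lower and 294 (2.36%) in the higher direction. Of 28 germline and meiosis promoters, 13 passed in the lower direction, none in the higher, and the median change was -5.88 points. Most of them were methylated at the start, and of the 21 above 20% in YP-mESCs these 13 are 61.9%, against 147 of all 1051 promoters above 20% (13.99%), whose median change was -1.39 points. Dazl, an RNA-binding protein gene of germ cells, had 54.0% and 57.3% over 23 CpGs against 76.4% and 77.7%. Mael, which acts in the piRNA pathway, had 22.4% and 25.1% against 31.8% and 34.5%, and Sohlh2, a germ cell transcription factor gene, had 46.7% and 45.3% against 64.0% and 56.8%.

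Of the imprinted genes, 34 promoters were tested. Peg10 and Sgce were called lower and none higher at 25 points, and 3 passed in each direction at any size, among them Plagl1 and Zrsr1, which rose, and Igf2r, whose own promoter changed by -2.27 points. Of 73 Wnt pathway promoters none was called, 2 passed in the lower and 6 in the higher direction, and the median change was 0.25 points. Their median level in YP-mESCs was 0.589% and 1 was above 20%, and a promoter under 25% cannot fall by over 25 points. Dvl2, which relays the Wnt signal from its receptors, had 9.82% and 7.16% in the clone and 18.0% and 15.8% in YP-mESCs, and Dkk2, a Wnt antagonist, had 17.2% and 17.1% against 4.45% and 7.12%.

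Of 22 promoters of methylation writers and imprint protectors none was called, and 3 passed in the lower direction. Uhrf1, which guides the maintenance methyltransferase to replicating DNA, had 15.2% and 6.06% over 3 CpGs against 25.9% and 22.9%. None of the 10 promoters of methylation erasers passed in either direction. Of 23 pluripotency promoters 2 passed in the lower direction, Tcl1 with 0% and 5.56% against 18.8% and 15.4% and Dppa4, and 1 in the higher. Of 100 promoters of lineage transcription factors, Hnf4a passed in the lower direction and 11 in the higher, such as Nkx2-1, with 9.93% and 10.8% against 2.76% and 3.69%. Of 29 Hox promoters 4 passed in the higher direction, the most changed being Hoxd12, with 35.2% and 32.4% against 23.1% and 23.6%.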

How the data were processed

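RRBS data of 2 libraries of S33Y #2 and 2 of YP-mESCs were used, grouped by their titles. Per the study's methods and the submitters' processing notes (CASAVA 1.8.2, Trim Galore 0.2.8, Bismark 0.7.9, mm9), the authors trimmed reads, aligned them to mm9 and deposited a count of covering reads and the percent methylated per CpG cytosine. The deposited values are not normalized, and each listed cytosine has 10 or more reads. The handling of duplicate reads is not given in the sources used here.

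Methylated reads were recomputed from count and percent, strands were summed, and levels were averaged over CpGs. ICR coordinates came from the study's supplement, genes from GENCODE vM1 on NCBIM37 (mm9). Fold changes are not used, and differences are in percentage points. The members and lists were chosen with earlier results of these data known. Named were all 20 ICRs, the 10 regions per direction with most changed CpGs, the 10 most changed called promoters per direction with 5 or more CpGs and no overlap, list members that were called, and the chromosomes with the highest and lowest change. Other promoters and genes were named after their values were seen. The paper calls the 2 libraries of a group biological replicates and does not say whether they were separate cultures. The CpG test used 1 overdispersion, 1.098, for the whole table. Limma estimated infinite prior degrees of freedom for windows, so each took the overdispersion of its depth, between 1 and 1.50. The spread between the replicates of a single CpG or window thus hardly enters its p-value. A p-value here describes these libraries and not the spread between cultures. Intervals of counting error are not given, since a read counts at each CpG that it spans. Python 3.11.15, scipy 1.17.1 and limma 3.58.1 in R 4.3.3 were used. The alternatives were other minimums of reads and CpGs, other thresholds, windows and tests, a single strand, a replicate block and each library left out.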

Additional observations from a re-analysis of the deposited data

Results flagged for a closer look

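At 3 ICRs the 2 clones that carry the S33Y mutation differed from each other by more than 25 points, by a test of the difference itself (quasi-binomial F test, adjusted over windows and ICRs). S33Y #2 minus S33Y #1 was -36.9 points at Gpr1 (9 CpGs), 46.3 points at Gnas (15 CpGs) and 48.1 points at Kcnq1ot1 (3 CpGs). In each case both libraries of S33Y #2 lay on the same side of both libraries of S33Y #1. All 3 are among the ICRs near 0 or 100% for which this clone was chosen, so the test is no independent evidence, and all 3 calls were lost under the replicate block with a moderated overdispersion (adjusted p = 0.635 in the F test with limma). Groups of 2 libraries are too small for a search for single outlying libraries.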

How the results depend on the processing

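Losses outnumbered gains at CpGs under every alternative that gave calls, but the counts moved. Lower and higher CpGs numbered 2864 and 446 with 20 reads, 1636 and 360 on the forward strand, 2148 and 282 with a moderated overdispersion per CpG, and 1503 and 205 over 40 points. With each library left out they ranged from 2256 to 3160 and from 311 to 507. Weighting CpGs by reads gave a mean difference of -0.37 points, and leaving out a library -0.94 to -0.66 points. Regions numbered 6 lower and 1 higher with 20 reads, 179 and 40 with 5 changed CpGs, 2 and 1 over 40 points, and 3 and 1 with every replicate apart. They ranged from 18 to 38 lower and from 6 to 10 higher with a library left out, the 38 being those without YP-mESC replicate 1. Windows with at least 5 CpGs gave 211 lower and 53 higher calls, and promoters 12 and 4. Limma on log2 ratios called 0 windows in either direction, and 3 promoters lower and 0 higher. At an unadjusted p under 0.05 and over 25 points limma gave 713 and 128 windows and 23 and 11 promoters. Leaving out a library gave 736 to 954 lower and 142 to 176 higher windows, and 24 to 31 and 8 to 12 promoters.

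With 20 reads, where Gpr1, Peg10 and Gnas could not be tested, 0 ICRs were lower and 4 higher, and with a library left out 2 were lower and 5 to 6 higher. Against S33Y #1, 1 to 3 were lower and 2 to 4 higher with a library left out, the 1 being without S33Y #2 replicate 2, and 1 was lower with the overdispersion of the ICRs alone, chosen after seeing the data. ICRs without a call changed sign at Snrpn (-7.98 points with 20 reads, -6.27 without S33Y #2 replicate 2, 14.5 without S33Y #2 replicate 1), Trappc9 (-0.50 with 20 reads), Impact (7.09 with 20 reads, -6.53 without S33Y #2 replicate 1, 1.198 and 1.10 without S33Y #2 replicate 2 or YP-mESC replicate 1) and Herc3 (-2.60 and -2.55 without S33Y #2 replicate 1 or YP-mESC replicate 2, 6.94 without S33Y #2 replicate 2). The cause was not tested.

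Across single CpGs, the deviations of same-numbered libraries from their group means had a correlation of -0.0024. With a median of 24 to 34 reads, such deviations are mostly counting error. This value therefore cannot show whether the replicate numbers pair the samples. With the replicate block 5436 CpGs were lower and 986 higher, but 0 windows, promoters and ICRs were called in either direction against YP-mESCs, and 0 ICRs against S33Y #1. At an unadjusted p under 0.05 and over 25 points, the block left 704 lower and 125 higher windows, and 21 and 11 promoters. At an unadjusted p under 0.05 alone, the block left 2 and 6 ICRs, and 2 and 2 ICRs against S33Y #1. The block leaves 1 residual degree of freedom and limma then estimated 2.09 prior ones. Without the block there were 2 residual degrees of freedom and infinite prior ones. With the block and 1 shared overdispersion, chosen after seeing the data, the counts were 714 and 128 windows, 23 and 11 promoters, 2 and 7 ICRs, and 3 and 2 ICRs against S33Y #1.

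Depth limits what single CpGs can show, with a median of 24 to 34 reads. Of 20 ICRs 4 could not be tested.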

Other observations

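Windows at intermediate levels in YP-mESCs that were nearly empty or full in the clone were also found away from ICRs. Of the 19 windows of 1 kb at 30 to 70% in YP-mESCs and under 5% in S33Y #2, 17 did not overlap an ICR, and of the 15 over 90%, 10 did not. All 17 were called lower, whereas 6 of the 10 were called higher and 4 were not called. These windows were chosen by their values and were not tested as a group. In Daxx, which encodes a histone H3.3 chaperone, 4 CpGs had 5.75% and 3.72% in the clone and 29.2% and 32.1% in YP-mESCs. In Nr1h2, the gene of a sterol-sensing nuclear receptor, 5 CpGs had 0.667% and 4.67% against 34.5% and 30.6%. In Snrpd3, which encodes a core splicing protein, 5 CpGs had 4.80% and 2.69% against 43.0% and 36.8%. Among the windows above 90%, an intergenic window of 4 CpGs on chromosome 1, with Dsel as its nearest coding gene at 691515 bp, had 93.8% and 90.6% against 60.4% and 61.4%.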
